A study of Mus musculus with 6 samples.

Results

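The genes examined here are repressed, or disallowed, in normal pancreatic beta cells, and they were followed in MIN6, a mouse insulinoma line that secretes insulin. The 10 genes were Ldha, Slc16a1, Hk1, Igfbp4, Oat, Cxcl12, Smad3, Acot7, Zyx and Pdgfra, of 17491 protein-coding genes with an annotated start in the RefSeq promoter table used (GRCm38.p6). They were chosen by name from what is known of beta cells, at a time when earlier results of these data were known. Each was followed in its gene body and the 10 kb on either side. MIN6 cells gave 6 libraries, 2 each with an antibody to the transcription factor MafA, with one to H3K4me3 (trimethylated lysine 4 of histone H3, the positive control) and with IgG (the negative control). The labels name no genotype and no treatment other than the antibody. CUT&RUN was used, in which an antibody bound in permeabilised cells directs a nuclease to cut out the DNA around its target for sequencing. Peak lists of the H3K4me3 and MafA libraries were analysed, and the IgG libraries were not analysed here. MIN6 is 1 established tumour line, and normal beta cells were not among the samples, so no comparison with normal beta cells was made.

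A beta cell couples glucose metabolism to insulin release, and enzymes or transporters that would divert pyruvate to lactate, let circulating pyruvate or lactate in, or phosphorylate glucose at low concentration are kept low in it. This silencing is one of the marks of a mature beta cell. H3K4me3 is laid down at the starts of genes with a CpG-rich promoter when these are active or poised, and it is therefore a readout of the state of a gene's start and not of its RNA level. MafA is a basic leucine zipper factor that drives insulin transcription in mature beta cells and binds MAF recognition elements. The question was whether this line carries H3K4me3 at genes that normal beta cells keep silent, and where MafA lay around them.

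The 10 genes had 12 starts in the promoter table, of which 9 lay within 1 kb of an H3K4me3 region found in both replicates and 3 did not. The sequences below are the 250 bases before 8 of these starts (RefSeq, GRCm38.p6, 5′ to 3′ in the direction of transcription), with each CpG in capitals. They are shown because CpG content told the marked from the unmarked starts apart. The first 5 starts were marked by H3K4me3 and the last 3 were not.
Ldha, first start, chr7:46845554-46845803, plus strand: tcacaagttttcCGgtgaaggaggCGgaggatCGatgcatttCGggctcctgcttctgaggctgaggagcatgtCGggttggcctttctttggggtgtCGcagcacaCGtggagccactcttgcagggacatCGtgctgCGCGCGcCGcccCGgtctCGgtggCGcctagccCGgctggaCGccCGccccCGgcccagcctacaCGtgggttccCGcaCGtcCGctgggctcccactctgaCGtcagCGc
Slc16a1, chr3:104638414-104638663, plus strand: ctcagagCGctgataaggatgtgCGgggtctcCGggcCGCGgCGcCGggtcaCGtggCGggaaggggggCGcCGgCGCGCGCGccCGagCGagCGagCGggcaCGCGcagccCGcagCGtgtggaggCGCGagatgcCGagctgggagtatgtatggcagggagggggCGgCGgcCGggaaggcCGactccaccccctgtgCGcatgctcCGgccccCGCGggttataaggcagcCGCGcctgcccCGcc
Hk1, second start, chr10:62340422-62340671, minus strand: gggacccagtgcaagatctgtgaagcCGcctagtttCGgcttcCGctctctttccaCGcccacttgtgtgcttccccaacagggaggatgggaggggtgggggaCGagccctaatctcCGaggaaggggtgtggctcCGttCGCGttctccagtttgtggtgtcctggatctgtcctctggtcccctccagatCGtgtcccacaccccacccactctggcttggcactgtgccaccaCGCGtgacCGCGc
Cxcl12, chr6:117168285-117168534, plus strand: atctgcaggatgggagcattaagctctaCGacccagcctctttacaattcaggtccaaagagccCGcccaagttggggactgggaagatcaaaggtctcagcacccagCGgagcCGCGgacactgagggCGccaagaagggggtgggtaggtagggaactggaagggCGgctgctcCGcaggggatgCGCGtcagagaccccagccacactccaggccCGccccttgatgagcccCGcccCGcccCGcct
Oat, chr7:132576399-132576648, minus strand: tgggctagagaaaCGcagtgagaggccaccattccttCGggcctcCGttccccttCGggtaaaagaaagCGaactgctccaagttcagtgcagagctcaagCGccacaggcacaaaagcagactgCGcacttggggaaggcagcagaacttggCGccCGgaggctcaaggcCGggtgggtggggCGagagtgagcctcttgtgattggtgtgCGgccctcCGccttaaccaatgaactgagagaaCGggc
Hk1, first start, chr10:62379909-62380158, minus strand: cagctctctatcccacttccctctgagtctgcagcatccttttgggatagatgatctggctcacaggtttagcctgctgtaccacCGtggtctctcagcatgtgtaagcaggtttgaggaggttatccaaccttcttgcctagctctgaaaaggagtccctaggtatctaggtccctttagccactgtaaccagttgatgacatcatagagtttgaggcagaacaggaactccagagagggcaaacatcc
Acot7, chr4:152185358-152185607, plus strand: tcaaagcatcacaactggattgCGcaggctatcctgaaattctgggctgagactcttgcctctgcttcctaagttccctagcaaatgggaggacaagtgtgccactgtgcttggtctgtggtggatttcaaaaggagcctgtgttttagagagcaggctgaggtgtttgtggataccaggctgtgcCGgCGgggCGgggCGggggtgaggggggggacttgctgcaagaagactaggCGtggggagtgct
Pdgfra, chr5:75152001-75152250, plus strand: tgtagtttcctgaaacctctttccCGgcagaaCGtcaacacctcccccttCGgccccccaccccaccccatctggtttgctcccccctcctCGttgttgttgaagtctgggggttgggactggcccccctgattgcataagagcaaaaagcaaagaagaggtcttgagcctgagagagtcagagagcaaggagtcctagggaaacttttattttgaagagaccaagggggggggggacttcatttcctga

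The printed stretch held 37 CpG at Slc16a1 and 25 at the first Ldha start, against 1 at the first Hk1 start, 6 at Acot7 and 4 at Pdgfra. Over the whole 300-base window, which runs 250 bases before to 50 after the start, the ratio of observed to expected CpG was 1.06 at Slc16a1, 0.88 and 0.54 at the first and second Ldha start, 0.78 at Oat, 0.75 at Smad3, 0.72 at Igfbp4, 0.67 at the second Hk1 start, 0.64 at Cxcl12 and 0.58 at Zyx. It was 0.29 at Acot7, 0.26 at Pdgfra and 0.05 at the first Hk1 start. The 9 marked and the 3 unmarked starts did not overlap. The same separation was seen in large part over all coding genes. Among 21262 starts of coding genes the median ratio was 0.784 at the 12112 starts with H3K4me3 and 0.206 at the 9150 without, and H3K4me3 lay at 91.9% of starts with a ratio of at least 0.6 and at 25.1% of the others.

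**Figure D1:**
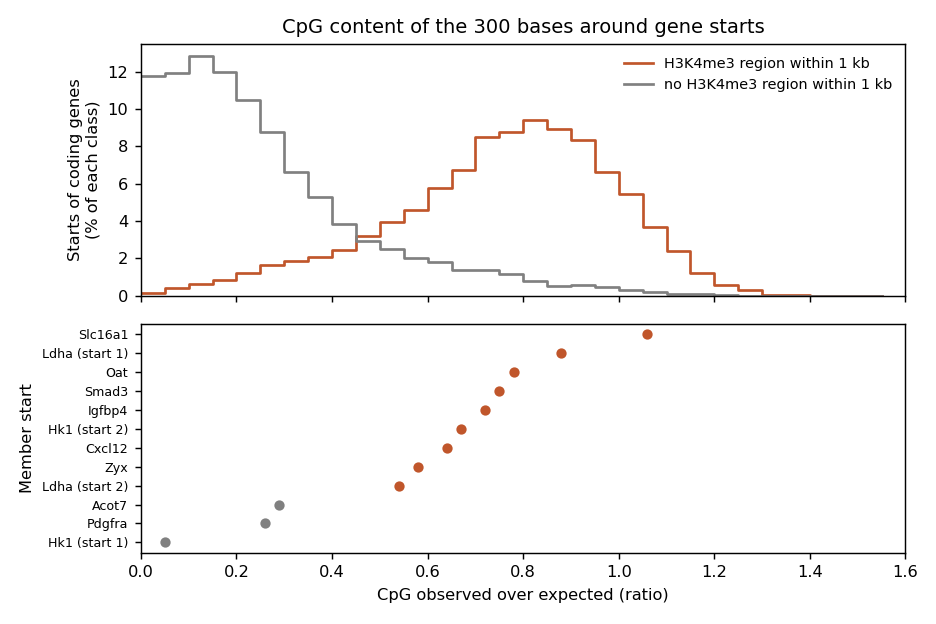
Top: percent of coding gene starts (y axis) by CpG observed over expected in the 300-base window (x axis), for 12112 starts with an H3K4me3 region within 1 kb and 9150 without. Bottom: the 12 starts of the 10 genes on the same x axis, coloured by the same classes and with starts numbered in the direction of transcription; the 9 marked starts lie at 0.54 or above and the 3 unmarked ones at 0.29 or below.

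H3K4me3 marked 8 of the 10 genes at a start of the table: Ldha, Slc16a1, Hk1, Igfbp4, Oat, Cxcl12, Smad3 and Zyx. The share among all 17491 coding genes was 57.6%, and no test was made over a list chosen by name. Acot7 was marked at the outer 5′ end of the gene instead, which counts it as the ninth gene, against 58.6% of all coding genes by that looser rule. In the wider window of the gene and 10 kb either side, 9 of 10 genes held an H3K4me3 region, against 65.3% of all coding genes. Pdgfra was the gene without one.

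Strength at these starts was moderate. Fold enrichment, the authors' ratio of the fragments stacked at a peak's summit to the background modelled there, had a median of 14.9 over the 8 genes (means of 2 replicates), against 17.9 over the 10080 coding genes marked at a start, whose quartiles were 12.9 and 22.6. Of the 8 genes, 2 lay above that median, 3 between it and the lower quartile and 3 below the lower quartile. The percentile of a peak, the share of its own list with an equal or lower fold enrichment, had a median of 53.3 over the 8 genes and 65.1 over all marked coding genes.

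**Figure D2:**
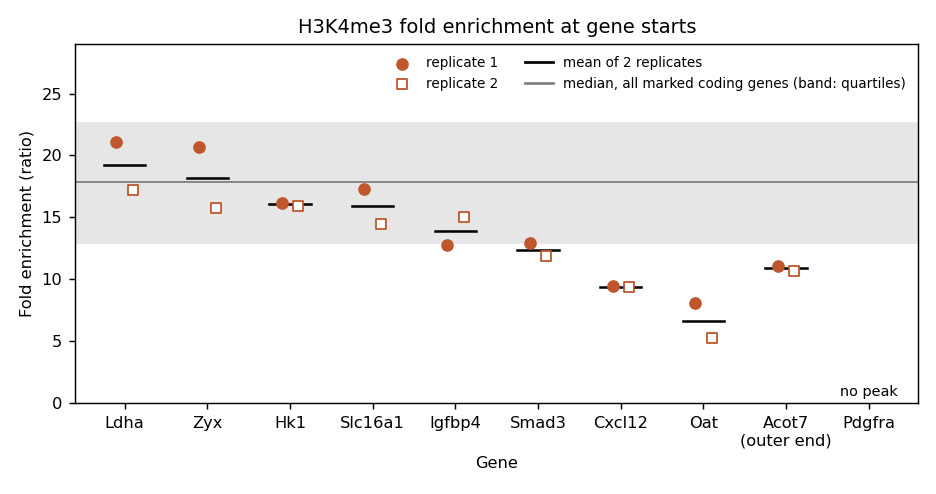
Fold enrichment of H3K4me3 (y axis, ratio) at each gene's start (x axis), with replicate 1 as filled circles, replicate 2 as open squares, the mean as a bar, and the median and quartiles of 10080 marked coding genes as line and band. Ldha and Zyx reach means of 19.2 and 18.2, Oat is lowest at 6.67, Acot7 is shown at its outer 5′ end, and Pdgfra has no peak at its start.

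The genes of lactate and glucose handling were marked in both replicates. Ldha encodes the lactate dehydrogenase subunit that favours the reduction of pyruvate to lactate. Its H3K4me3 region on chromosome 7 from 46845119 to 46847951 spanned both starts and had fold enrichment of 21.1 in replicate 1 and 17.2 in replicate 2 (19.2 ± 2.76, mean ± SD, n = 2), at percentiles of 72.7 and 67.3. The summit held 880 and 290 fragments, against a background of 16.3 and 15.9 on the scale of the peak calling, and lay 314 bp downstream of the first start in both replicates. The outer 5′ end of the annotated gene, at 46842274, lay outside the mark. The Ldha mark was the strongest among the 10 genes by mean fold enrichment.

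Slc16a1 encodes the monocarboxylate transporter MCT1, which carries lactate and pyruvate across the plasma membrane. Its region on chromosome 3 from 104637672 to 104639751 had 17.3 and 14.5 (15.9 ± 1.94, n = 2). The summits held 1497 and 553 fragments, the most among the member starts. The background was 35 and 37, also the highest, on the scale of the peak calling, on which a fragment counted as 0.415 and 0.997. The order of both genes therefore depended on the measure: the mean percentile was 56.8 by fold enrichment and 73.6 by −log10 q at Slc16a1, and by −log10 q it was 57.2 at Ldha.

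Hk1 encodes hexokinase 1, a high-affinity glucose-phosphorylating enzyme that is inhibited by its product. Only the second of its starts in the table carried the mark, inside the gene on chromosome 10 from 62338500 to 62341382. Fold enrichment there was 16.2 and 15.9 (16.1 ± 0.243, n = 2), with summits 431 and 424 bp downstream of that start. No H3K4me3 peak lay at the first start in either replicate.

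The paralogues that do related work differed in their marks. Hk2, Hk3 and Hkdc1 had no H3K4me3 region at a start. Slc16a3, encoding the lactate exporter MCT4, had 25.9 and 22.1 at its start, above Slc16a1 in both replicates. Ldhb, the other main lactate dehydrogenase subunit, had 10.4 and 12.3, below Ldha in both replicates.

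Of the enzymes of amino acid and acyl-CoA metabolism, Oat had the lowest fold enrichment among the marked starts. The Acot7 mark, at the outer 5′ end, was above that of the Cxcl12 start (9.42). Oat encodes ornithine aminotransferase, a mitochondrial enzyme of ornithine and glutamate metabolism. Its start region on chromosome 7 from 132575237 to 132576648 had fold enrichment of 8.06 and 5.27 (6.67 ± 1.97, n = 2), at percentiles of 27.0 and 17.6, with 255 and 110 fragments at the summit. A second, narrow H3K4me3 region lay downstream of Oat from 132551488 to 132551863, with 4.93 and 4.82, and its nearest annotated start was that of Gm35249 at 13212 bp.

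Acot7 encodes an acyl-CoA thioesterase. Its single start in the table lay without the mark, while the outer 5′ end of the gene did carry one, on chromosome 4 from 152177481 to 152178935, with fold enrichment of 11.1 and 10.7 (10.9 ± 0.298, n = 2). The table gives no start or sequence at that end, so the CpG ratio of 0.29 belongs to the unmarked start alone. Another H3K4me3 region in the Acot7 window, with 11.6 and 8.52, covered the start of the neighbouring gene Gpr153 and belongs to that gene by position.

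Among the secreted factors, receptors and signal carriers the marks ranged from none to moderate. Igfbp4 encodes a secreted protein that binds insulin-like growth factors. It had the widest mark of the member starts, at 3349 and 3362 bp in replicates 1 and 2, on chromosome 11 from 99039979 to 99043340, with fold enrichment of 12.8 and 15.0 (13.9 ± 1.59, n = 2). Its replicates ran opposite to the other marked starts in that replicate 2 was higher.

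Smad3 encodes a signal carrier of the TGF-beta and activin receptors. Fold enrichment at its start on chromosome 9 from 63756360 to 63758501 was 12.9 and 11.9 (12.4 ± 0.71, n = 2). Cxcl12 encodes a chemokine that signals through the receptor CXCR4. Its start on chromosome 6 from 117168195 to 117169482 had 9.43 and 9.42 (9.42 ± 0.0099, n = 2), at percentiles of 31.5 and 34.9, and peaks of only 1288 and 1176 bp. Cxcr4 itself was marked, with a mean of 11.1, and Ackr3, the gene of the other Cxcl12 receptor, was not.

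Pdgfra encodes a receptor tyrosine kinase for platelet-derived growth factor and is typical of mesenchymal cells. No H3K4me3 peak lay at its start in either replicate. Replicate 2 alone had a weak peak of 888 bp inside the gene, with fold enrichment of 3.66, 32 fragments over a background of 8 and its summit 4424 bp downstream of the start. Of the related genes, Pdgfa was marked, with a mean of 21.4, and Pdgfb and Pdgfrb were not marked at a gene end.

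Zyx encodes zyxin, a protein of focal adhesions and actin fibres. Its start on chromosome 6 from 42348536 to 42351582 had fold enrichment of 20.7 and 15.8 (18.2 ± 3.44, n = 2), with 1291 and 411 fragments at the summit. Replicate 1 was higher than replicate 2 at Zyx, Ldha, Slc16a1 and Oat by more than 2 units of fold enrichment. At Hk1 and Cxcl12 the replicates lay within 1 unit of each other.

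The marks differed in width more than in place. Peaks at the member starts were 1176 to 3362 bp wide, and the median over all marked coding genes was 2099 bp (mean of 2 replicates per gene). At 7 of the 8 marked genes both summits lay downstream of the start, by 103 to 468 bp. The share over all marked coding genes was not computed, so this is not a trait particular to these genes. At Igfbp4 they lay 138 bp downstream in replicate 1 and 134 bp upstream in replicate 2.

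**Figure D3:**
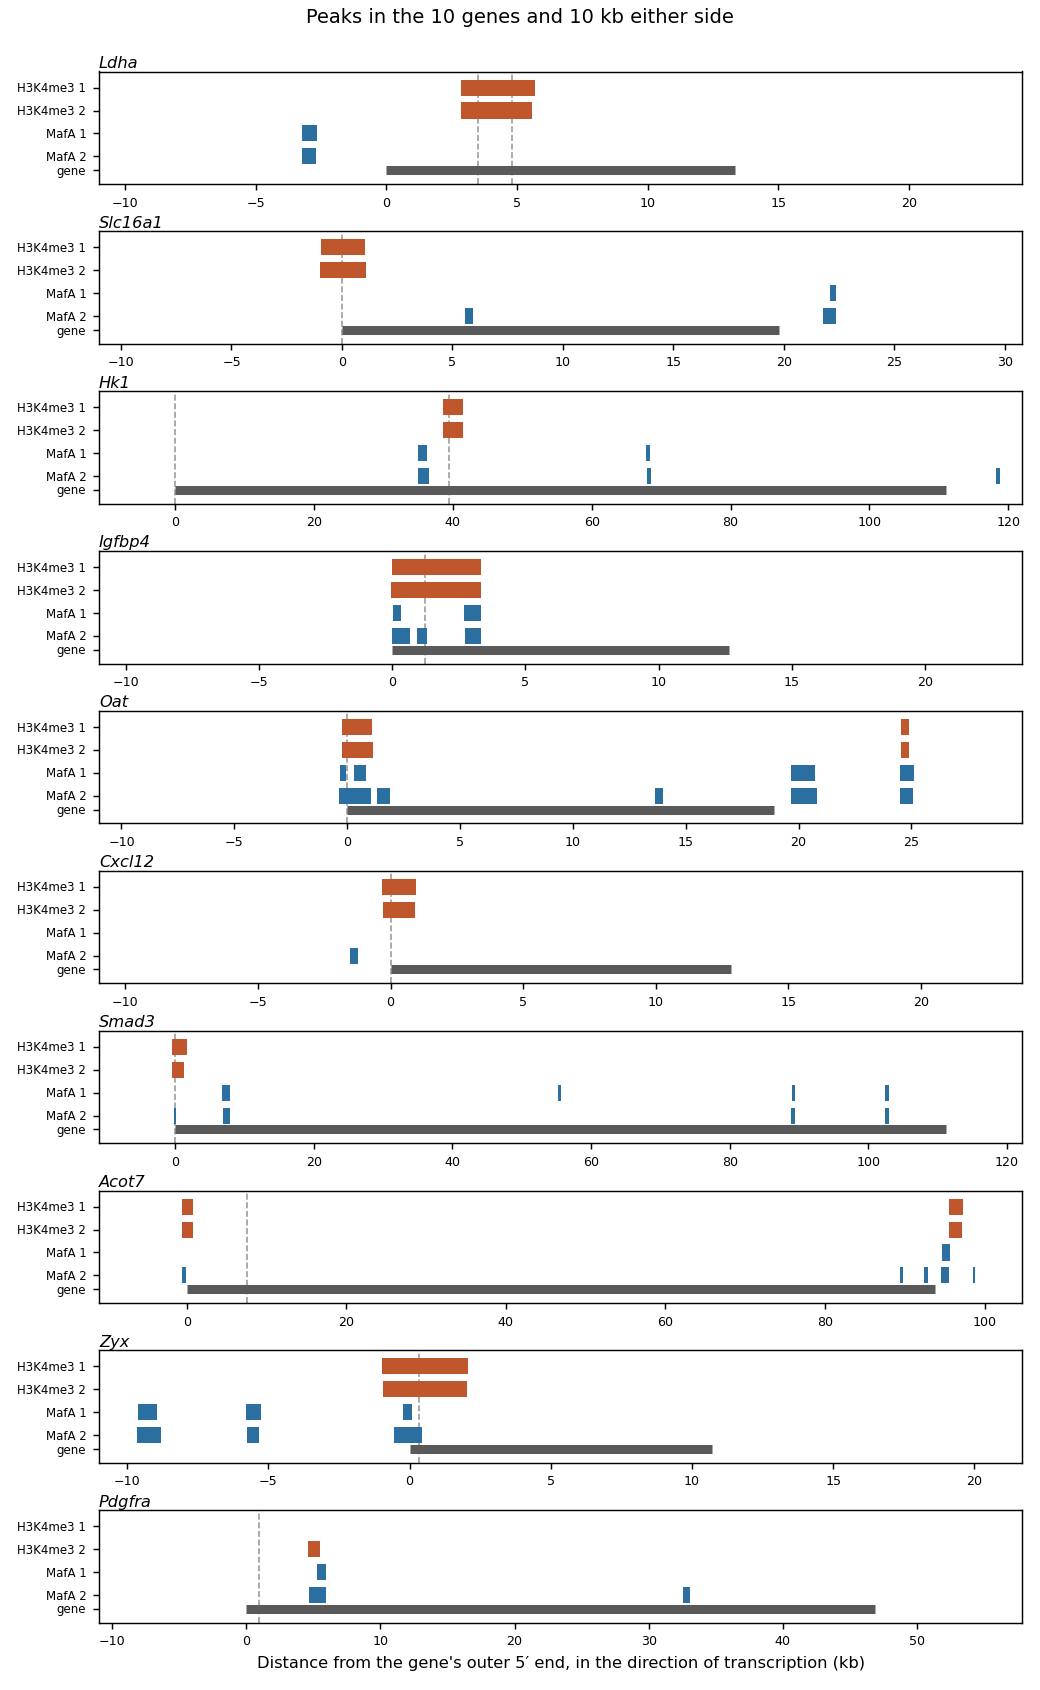
Peaks of H3K4me3 (orange, replicates 1 and 2) and MafA (blue, replicates 1 and 2) in each gene and 10 kb either side, with distance from the outer 5′ end on the x axis (kb, scale differing between genes), the gene as a grey bar and starts of the promoter table as dashed lines. H3K4me3 peaks lie at dashed starts except at Acot7, downstream of Oat and inside Pdgfra, whereas 11 of 17 MafA regions found in both replicates lie away from it.

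MafA regions found in both replicates lay in or within 10 kb of 9 of the 10 genes, against 43.9% of all coding genes and 61.5% of those with H3K4me3 at a start. Cxcl12 was the gene without one. The 9 genes held 17 distinct regions, or 2.61 per 100 kb of window, against 1.4 per 100 kb over the windows of all coding genes. Of the 17 regions, 7 lay inside the gene, 3 upstream of it, 4 downstream of it and 3 across a gene end. With MafA replicate 2 alone the windows held 29 peaks, and with replicate 1 alone 19, so the shorter list limited the number of shared regions.

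The depth behind these regions was low. Fragments at the summits ran from 13 to 113 in MafA replicate 1 and from 18 to 276 in replicate 2 in these windows. The counting error of such numbers is large at the weaker regions. MafA replicate 2 was also the longer list, with 42747 peaks against 33013.

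The strongest MafA region of the set lay in Hk1. It was on chromosome 10 from 62343399 to 62344893, inside the gene, with fold enrichment of 13.2 and 14.8 (14.0 ± 1.11, n = 2), at percentiles of 94.8 and 95.8, and with 113 and 276 fragments at the summit. Its summits lay 4048 and 4025 bp upstream of the marked second start, and the region overlapped no H3K4me3. A second Hk1 region, 28789 and 28808 bp downstream of that start, had 6.52 and 6.54.

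At Oat the strongest region lay downstream of the gene on chromosome 7 from 132555568 to 132556744, with 11.5 and 12.2 (11.9 ± 0.497, n = 2), without H3K4me3. A second region from 132551299 to 132551889, with 6.56 and 8.3, coincided with the narrow distal H3K4me3 region. Another covered the Oat start, from 132575344 to 132576761, with 4.59 and 3.98, where replicate 1 had a pair of separate peaks and replicate 2 had 1 long one. Oat thus combined the weakest H3K4me3 start among the 8 marked genes with a MafA region at percentiles of 92.5 and 93.2.

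At Ldha a single region lay upstream of the gene on chromosome 7 from 46839034 to 46839639, with 10.6 and 7.55 (9.08 ± 2.15, n = 2). Its summits lay 6464 and 6463 bp upstream of the first start, and the percentiles were 90.7 and 79.9. At Slc16a1 the region was downstream of the gene, with 5.37 and 5.64 and 27 and 44 fragments at the summit. Nothing of MafA lay at the start of either gene.

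Smad3 held 3 regions, all inside the gene. The strongest, from 63655006 to 63655651, had 7.22 and 8.43 (7.83 ± 0.859, n = 2), with its summits 102830 and 102811 bp downstream of the start and near the 3′ end of the gene. The others had 7.07 and 6.1 at 7588 and 7388 bp, and 4.93 and 5.0 at 89323 and 89039 bp. A peak over the Smad3 start itself was called in replicate 2 alone, with 2.21.

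Igfbp4 was flanked by MafA at both edges of its H3K4me3 region. The region at the downstream edge, with summits at 1955 and 1957 bp from the start, had 5.57 and 8.78 (7.17 ± 2.27, n = 2). The region at the upstream edge, 1060 and 1110 bp before the start, had 3.37 and 3.83. Replicate 2 alone added a peak at the start, with 2.67.

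Zyx had a region over its start and a pair of regions upstream. The start region had the lowest fold enrichment among the 17, at 2.37 and 2.33 (2.35 ± 0.0289, n = 2), yet 53 and 108 fragments at the summit. The background there was 21.8 and 34 on the scale of the peak calling, on which a fragment counted as 1 and 0.746. The upstream regions had 5.85 and 3.5, and 5.16 and 3.63, on 14 to 23 fragments. Replicates diverged at both of these, with percentiles of 64.0 and 52.4 in replicate 1 against 21.6 and 24.7 in replicate 2.

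The remaining genes had weak or unshared MafA signal. In the Acot7 window the shared region, with 4.48 and 5.28, lay 379 bp from the start of Gpr153. Pdgfra held 1 region inside the gene, with 4.99 and 4.5, whose summits lay 864 bp apart, so the replicates did not mark the same point. That gap was the widest, but only 9 of the 17 shared regions had replicate summits within 100 bp of each other. At Cxcl12 a peak with fold enrichment of 9.07 and 71 fragments lay 1380 bp upstream of the start in replicate 2, at a percentile of 86.5, and replicate 1 had no peak in the window.

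**Figure D4:**
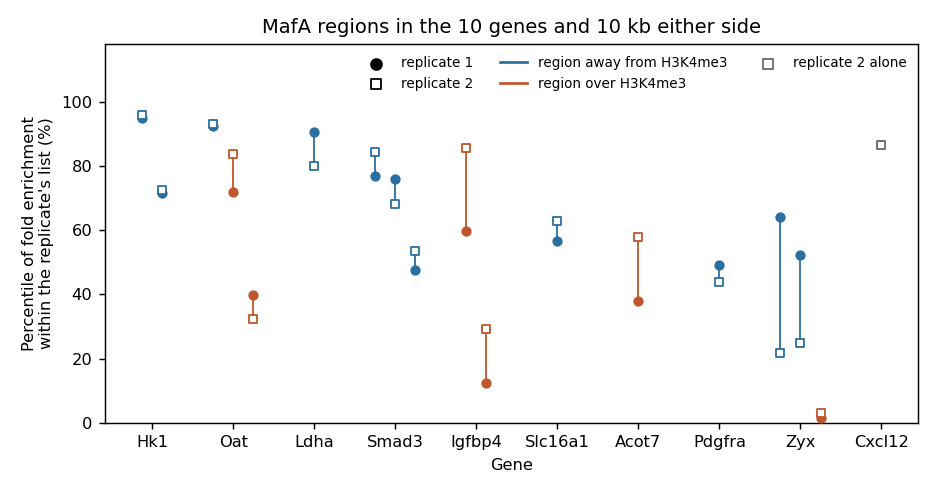
Percentile of fold enrichment within the replicate's own list (y axis, %) for each of the 17 MafA regions by gene (x axis), with replicate 1 filled, replicate 2 open, and colour showing overlap with an H3K4me3 region; the grey square is the Cxcl12 peak of replicate 2 alone. Hk1 and Oat hold the top regions, at 95.3 and 92.8 on average over replicates, and regions over H3K4me3 reach from 2.33 to 77.7.

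H3K4me3 coincided with 6 of the 17 MafA regions (35.3%), against 23.5% of the 25894 MafA regions of the genome. The 17 were all taken from gene windows, whereas the genome-wide share was not limited to such windows. The share within the windows of all coding genes was not computed. The 6 regions were both Igfbp4 regions, a pair at Oat, the one at Gpr153 and the one over the Zyx start. Their mean percentile had a median of 42.0 and ran from 2.33 to 77.7, while the 11 regions elsewhere had a median of 72.0 and ran from 38.6 to 95.3. These ranges overlap, and the gap was narrower by −log10 q, with a median percentile of 58.6 (34.8 to 87.1) over H3K4me3 and of 65.4 (23.2 to 97.4) elsewhere. Fold enrichment divides by the background, which reached 21.8 and 34 at the Zyx start but was 4.39 and 6.6 at the downstream Igfbp4 region. Whether the background bears on the gap was not tested. A MafA region within 1 kb of a start was found at 3 genes, Igfbp4, Oat and Zyx, against 19.9% of all coding genes and 33.3% of those with H3K4me3 there.

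The strongest MafA region per gene had a median percentile of 72.5 over the 9 genes and of 66.6 over the 7685 coding genes with a region. Both medians take the best of several regions in genes that hold more than 1. The median fold enrichment was 7.17 over the 9 genes and 6.18 over the 7685. In 7 of the 9 genes the strongest region overlapped no H3K4me3. Over the genome 23.5% of all MafA regions, strongest or not, overlapped H3K4me3, so a lack of overlap was common. The share for the strongest region per gene was not computed over all coding genes.

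Coverage was compared between the targets over the 10 windows, which summed to 651 kb. H3K4me3 peaks covered 3.45% and 3.47% of them in replicates 1 and 2, and MafA peaks 1.81% and 3.0%. The means were 3.46 ± 0.0138% and 2.41 ± 0.842% (SD, n = 2 libraries each), a difference of 1.05 percentage points for which a two-sided exact permutation test gave p = 0.333, the lowest value possible with 4 libraries. The libraries of the targets did not overlap, but those of MafA lay further apart than the means of the targets, and the difference was 0.45 points with MafA replicate 2 alone and 1.65 with replicate 1 alone. The labels do not say whether replicates came from separate cultures, so this spread may be technical.

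Short motifs were searched in the 12 start windows on both strands. The TGCTGA end of the MAF recognition element was found in 2 windows, at Cxcl12 and at the first Hk1 start, against 18.1% of coding gene starts. The TGACTCA core was found once, at Zyx, against 4.66%, and the TGACGTCA core once, at the first Ldha start, against 2.23%. The stretches around the last 2 cores are shown with the core in capitals (at Zyx as its reverse complement), since one lies within the replicate 2 MafA peak over the Zyx start and the other in a window without MafA. The first begins 121 bases and the second 12 bases before the start. The replicate 1 MafA peak over the Zyx start, from 42349261 to 42349582, ended before the core there.
Zyx, chr6:42349692-42349728, plus strand: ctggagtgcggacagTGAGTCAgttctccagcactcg
Ldha, chr7:46845777-46845803, plus strand: gctgggctcccactcTGACGTCAgcgc

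The ACGTG core of the hypoxia response element was found in 4 windows, at the first Ldha start, Slc16a1, the second Hk1 start and Oat, against 20.9% of coding gene starts and 26.4% of those with H3K4me3. The GC box GGGCGG was found in 7 windows, against 46.2% of all coding gene starts and 68.4% of those with H3K4me3. TGACGTCA shares its central ACGT with ACGTG. A match describes the letters and not the presence of a factor.

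A further list of 17 genes reported as disallowed in islets was examined the same way. An H3K4me3 region lay at the start, or at a gene end where the table held no start (5 genes), of 9 of the 17, beside the 57.6% of coding genes marked at a start. That share covers only genes with a start in the table. Of the marked genes, Maf, Nfib, Rest and Tst were judged at gene ends. Among the marked were Rest, the repressor of neuronal genes, with fold enrichment of 21.2 and 20.6, Maf with 23.2 and 18.8, Cat, encoding catalase, with a mean of 14.0, and Yap1, a Hippo pathway effector, with 6.42 and 6.53. Arhgdib, Cd302, Itih5 and Tns1 held none in the whole window. A MafA region lay in 7 of the 17 windows, against 43.9% of coding genes.

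Among 31 partners and paralogues of the 10 genes, 21 were marked by H3K4me3 at a start or gene end, beside 57.6% of coding genes marked at a start. Gene ends were used for 8 of the 31, which had no start in the table, and the 57.6% did not use them. A MafA region lay in 16 of the windows, beside 43.9% of coding genes. The highest H3K4me3 was at Smad7, encoding an inhibitory Smad, with 36.4 and 33.2, and the lowest at Igfbp3, with 6.48 and 3.28. Igfbp5 combined a low mark of 7.8 and 8.29 with a MafA region of 13.2 and 14.8 that overlapped it, and Igfbp1 and Igfbp6 were unmarked at the start. Smad2 and Smad4, whose products carry the signal together with Smad3 or in parallel, had means of 26.5 and 23.2, above that of Smad3.

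The label of a beta cell line was checked against markers. H3K4me3 marked 8 of 10 beta cell genes, with Ins1 and Ucn3 unmarked, beside 57.6% of the coding genes with a start in the promoter table. Ins2, Mafa and Slc30a8, all marked, had no start there and were judged at both gene ends. The share of 57.6% did not use that rule, so the comparison is not like for like. Of 4 alpha cell markers 3 were marked, Gcg with a mean of 6.37, and Irx1 and Irx2. None of 6 fibroblast and stellate cell markers, 3 endothelial and 3 leukocyte markers was marked at a start or gene end, and 1 of 4 acinar markers was, Bhlha15 with a mean of 6.45. All 10 beta cell markers had a MafA region, with a median percentile of 94.2 for the strongest per gene, beside 43.9% of all coding genes with a region. A region was also found at 3 of 4 alpha cell markers (median percentile 85.5), at 3 of 6 fibroblast and stellate cell markers (81.5), at 1 of 3 leukocyte markers (63.4) and at no acinar or endothelial marker. The 4 lists behind these values held 16020 and 16904 H3K4me3 peaks and 33013 and 42747 MafA peaks.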

How the data were processed

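The data were 4 deposited lists of narrow peaks, 1 per library, called with MACS2 on GRCm38 (mm10), per the submitters' processing notes. Its version, the aligner and the control library are not given in the sources used here. The deposited fold enrichment is a ratio of the summit's pileup to its modelled background, and the deposited −log10 p and −log10 q are those of the summit; the lowest −log10 q was 2.0. Regions are unions of peaks of both replicates that shared at least 1 bp. Positions are 1-based. Starts came from the RefSeq promoter table (GRCm38.p6), in which all 10 genes matched; a listed gene without a start there was judged at both gene ends. Whole fragments at summits were solved from fold enrichment and p with a pseudocount of 1 and a relative tolerance of 0.0001, in 99.82 to 100% of peaks. A fragment counted as 0.415 (H3K4me3 replicate 1), 0.997 (H3K4me3 replicate 2), 1 (MafA replicate 1) and 0.746 (MafA replicate 2) on the peak caller's scale. The scripts were tested on simulated data. Alternatives were stricter peaks, equal numbers of peaks, 50% reciprocal overlap, merged peaks, other windows and starts, and leaving out each library. The tools were scipy 1.17.1, numpy 2.4.6 and pandas 2.3.3 under Python 3.11.15, with figures from matplotlib 3.10.9. The members, lists and motifs were chosen with earlier results of these data known. Named genes were the 10 members, the genes nearest to their regions, and, of each list, those with the highest and lowest mean percentile; the other list genes named were chosen after their values were seen.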

Additional observations from a re-analysis of the deposited data

How the results depend on the processing

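The number of genes with H3K4me3 at a start stayed at 8 for 4 other peak definitions, with windows of 500 bp and 2 kb, and without either H3K4me3 replicate. It was 7 with either gene end in place of the start, and 9 when the outer 5′ end was added, a setting chosen after seeing the data. The number with H3K4me3 in the window was 9 throughout, except for 10 without replicate 1, where the weak Pdgfra peak counted.

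The MafA results depended more on the setting. Genes with a MafA region in the window numbered 10 without MafA replicate 1, 6 among equal numbers of the strongest peaks, 6 in the gene body alone and 8 with 50% reciprocal overlap. Genes with one at a start fell from 3 to 0 among the strongest peaks and to 0 with 50% reciprocal overlap. The 17 distinct regions became 9 among the strongest peaks and 10 in the gene body alone, by construction, since fewer peaks or bases entered, and ranged from 19 to 29 when a MafA replicate was left out. The rule of 50% reciprocal overlap also drops, by construction, pairs in which 1 peak is less than 50% as wide as the other. In replicates 1 and 2 the peaks were 275 and 671 bp wide at the upstream Igfbp4 region and 322 and 1013 bp at the Zyx start. They were 534 and 281 against 1418 bp at the Oat start, and 272 and 574 bp downstream of Slc16a1. Why the widths differed was not tested.

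Of 64 values of fold enrichment under 4 other peak definitions, 1 moved by more than the replicate SD, that of Zyx for MafA, to 2.35 at −log10 q of at least 5. These definitions select or merge peaks and keep the deposited fold enrichment of each. A value could therefore change only where another peak was chosen, so the unmoved values say nothing about stability. Acot7, Zyx and Pdgfra lost their MafA region among the strongest peaks, and Slc16a1 with 50% reciprocal overlap. The coverage difference of 1.05 points ranged from 0.45 to 1.65 when a library was left out and from 0.98 to 2.27 otherwise. With the replicate number as a block it was again 1.05, and the exact permutation test gave p = 0.5. Nothing in the labels pairs libraries by their number, and no p of this design can pass 0.05, so these p-values say nothing about stability.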

Other observations

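Beyond the regions found in both replicates, 13 MafA peaks in the 10 windows were called in 1 replicate, 12 of them in replicate 2. Their fold enrichment in replicate 2 ran from 2.21 at the Smad3 start to 9.07 upstream of Cxcl12, with a median of 3.58. Some of them overlapped H3K4me3 at a 5′ end, namely those at the Smad3 start, at the Igfbp4 start with 2.67 and at the outer end of Acot7 with 2.74. The single peak of replicate 1 alone lay inside Smad3, with 4.54 and 13 fragments.

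Some regions in the windows lay at other genes. The start of Gpr153 carried both the second H3K4me3 region and the shared MafA region of the Acot7 window. Hkdc1, a hexokinase-like gene next to Hk1, had no H3K4me3 region in its window and 1 MafA region with a mean fold enrichment of 3.88.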
